A study of Mus musculus with 80 samples.

Results

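The 10 genes described here encode the serine/arginine-rich (SR) splicing factors Srsf1, Srsf2, Srsf3, Srsf4, Srsf5, Srsf6, Srsf7, Srsf9, Srsf10 and Srsf11. They were picked by gene symbol, and every symbol was found in both deposited tables, as 10 of the 15919 genes in the comparison of sorting methods and as 10 of the 16000 genes in the comparison of cell preparations. The choice used names and no threshold on a value, but it was made with results of these data known. The values and tests below therefore describe these genes and are not independent support for any pattern among them. All 10 passed the filter on low counts, which kept genes with more than 5 counts in every library of at least 1 group, in each fit.

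The study asked how the way microglia are isolated from mouse brain changes the RNA that is measured. Its 80 libraries are poly(A) RNA-Seq of brains from Cx3cr1-NuTRAP mice, labelled Cx3cr1(Jung)-cre/Ert2+;NuTRAP+, all given tamoxifen at 100 mg per kg at about 3 months. Tamoxifen activates a cre recombinase driven by the Cx3cr1 promoter, and Cx3cr1-expressing cells, which are microglia in most of the brain but also border macrophages, then carry ribosomes tagged with eGFP. Each lysate gave an Input library, made before any pull-down, and a TRAP library (translating ribosome affinity purification), made from RNA on ribosomes captured with an anti-GFP antibody. No group lacked the cre or the tamoxifen. In the comparison of sorting methods (48 libraries), Tissue was a hemisphere lysed directly, and Cell was a suspension made with enzymes and mechanical force and lysed unsorted. The 4 sorts began from such suspensions and were autoMACS (magnetic beads against CD11b), Tyto (a cartridge sorter gated on CD11b, CD45 and eGFP), autoMACS to Tyto (both in series) and FACSAria (a cytometer with the same gate). Each had 4 mice per group, except 5 for Tyto and 3 for autoMACS to Tyto. The comparison of cell preparations (32 libraries, 4 mice per group, none sorted) held Tissue 2, Cell (-) Inhib, which is the same enzymatic suspension, and Cell (+) Inhib, to which actinomycin D, triptolide and anisomycin were added during the enzymatic step to block transcription and translation. Its last group was Dounce, a mechanical suspension made entirely in the cold. Tissue and Cell came from the same 4 mice, Tissue 2 carries the same mouse numbers as Tissue, both Inhib groups came from the same 4 mice, and some mice gave hemispheres to more than 1 sort, so that the 16 sorted libraries of a fraction came from 10 mice. Dounce was made from a whole brain of each mouse, according to the study's text, and the other preparations from a hemisphere. Replicates are separate mice within a group. No mouse of the sorts gave Tissue or Cell libraries, and Tissue 2, Dounce and the pair of Inhib groups came from different mice. In comparisons between such groups, the preparation and the set of mice cannot be told apart.

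SR proteins carry RNA recognition motifs and a tail rich in arginine-serine repeats. They bind exons as the transcript is made, recruit the spliceosome to neighbouring splice sites, and several of them also travel to the cytoplasm with the mRNA and act in its export, stability and translation. Phosphorylation of the tail by Srpk kinases in the cytoplasm and Clk kinases in the nucleus sets where they are and whether they are active. Nearly every gene of the family limits its own expression through a poison exon, a conserved exon whose inclusion brings an early stop codon and decay of the transcript, and part of the family's RNA is held in the nucleus with introns still in place. The values used here are totals per gene and do not separate such isoforms.

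The libraries held 7129464 to 20168116 counts in the comparison of sorting methods and 2471448 to 14650287 in that of cell preparations, where the 4 Dounce-TRAP libraries were the shallowest (up to 4724538). Levels are given as CPM, counts per 1000000 on the library size that edgeR scales with its TMM method, set separately for the Input and the TRAP libraries of each table unless a common scale is named. The 8 microglial markers summed to 256 to 404 CPM in Tissue-Input, 4918 to 6476 in Cell-Input and 31099 to 40568 in sorted Input apart from the library of mouse 72 sorted by autoMACS (20335), and none of the 8 fell under 1 CPM in any group. The 8 neuronal markers summed to 7642 to 7934 CPM in Tissue-Input, 616 to 1371 in Cell-Input and 16.8 to 45.8 in sorted Input. Oligodendrocyte markers summed to 3463 to 4146, 10884 to 16226 and 209.9 to 829 CPM in the same order, astrocyte markers to 3571 to 3859.9, 7723 to 10292 and 162 to 415, and endothelial markers to 54.7 to 69.5, 1013 to 1938 and 74.7 to 259. The autoMACS-Input library of mouse 72 also held 8972 CPM of 6 RNAs that stay in the nucleus (Malat1, Neat1, Meg3, Miat, Snhg11 and Kcnq1ot1, a list chosen after the values were seen) against 790.2 to 1327 in the other 3 autoMACS-Input libraries. Results that rest on this library are given with and without it. Malat1 held 6190 CPM of its nuclear sum. In Dounce-Input, Malat1 held 3159 to 4897 of 32229.7 to 40689 CPM, so the sum is not made up of the same RNAs throughout.

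RefSeq promoters (GRCm38.p6, the patch release of the mm10 build the tables use, 250 bases before to 50 after each start) were found for all 10 genes, as 13 starts. Their median GC content was 69.0%, with a range of 56% to 78.3%, against 52.7% over all 32851 promoters. Searched on both strands, the letters CCGGAAG, an ETS factor motif, lay in promoters of Srsf4, Srsf5, Srsf7 and Srsf11 and in 8.86% of all promoters, and the NRF1 motif in Srsf2, Srsf4, Srsf9 and Srsf11 and in 4.6% of all. CCAAT lay in Srsf1, Srsf2, Srsf3 and Srsf10 (37.4% of all) and TATAAA in Srsf2 and Srsf3 (13.6% of all), while TGACGTCA, the CRE (1.79% of all), and AAGATGGCG, a YY1 motif (1.4% of all), matched no promoter of the 10. None of these letters were found in the Srsf6 promoter. A gene is named where any of its starts matched, whereas the shares are over single promoters, so the 2 are not alike. The NRF1 match of Srsf11 lies in its other start, which is not printed here. A match is a run of letters and was not tested as a binding site. The 4 promoters printed here belong to the genes that separate most clearly in the values below: Srsf11 and Srsf5, highest in the Dounce preparation, Srsf9, which changed most with sorting, and Srsf3, which did not rise with the Dounce preparation. Capitals mark the matches, which are CCGGAAG in Srsf11 and Srsf5, TATAAA and CCAAT in Srsf3 and the NRF1 motif in Srsf9, or their reverse complements. The regions are chr3:158036557-158036856 on the minus strand for Srsf11, chr12:80945249-80945548 on the plus strand for Srsf5, chr17:29032410-29032709 on the plus strand for Srsf3 and chr5:115326927-115327226 on the plus strand for Srsf9, and each sequence reads 5′ to 3′ along its gene.
Srsf11: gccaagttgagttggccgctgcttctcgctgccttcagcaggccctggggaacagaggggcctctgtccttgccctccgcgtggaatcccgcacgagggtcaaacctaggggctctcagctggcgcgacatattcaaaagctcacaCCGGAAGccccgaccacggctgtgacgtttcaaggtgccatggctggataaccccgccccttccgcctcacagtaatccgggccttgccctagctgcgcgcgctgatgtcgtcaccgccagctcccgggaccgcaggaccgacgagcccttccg
Srsf5: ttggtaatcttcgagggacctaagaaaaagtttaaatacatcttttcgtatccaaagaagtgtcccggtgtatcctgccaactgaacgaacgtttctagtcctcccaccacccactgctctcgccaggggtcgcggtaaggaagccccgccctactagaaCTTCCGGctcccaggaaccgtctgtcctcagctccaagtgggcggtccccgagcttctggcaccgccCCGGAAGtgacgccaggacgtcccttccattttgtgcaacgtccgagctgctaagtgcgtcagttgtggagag
Srsf3: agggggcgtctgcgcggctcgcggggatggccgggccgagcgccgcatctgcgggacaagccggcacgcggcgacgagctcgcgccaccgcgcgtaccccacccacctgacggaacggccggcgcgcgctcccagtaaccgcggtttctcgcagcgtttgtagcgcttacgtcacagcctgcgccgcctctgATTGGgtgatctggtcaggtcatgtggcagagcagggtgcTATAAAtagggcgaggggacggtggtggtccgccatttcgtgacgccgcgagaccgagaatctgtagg
Srsf9: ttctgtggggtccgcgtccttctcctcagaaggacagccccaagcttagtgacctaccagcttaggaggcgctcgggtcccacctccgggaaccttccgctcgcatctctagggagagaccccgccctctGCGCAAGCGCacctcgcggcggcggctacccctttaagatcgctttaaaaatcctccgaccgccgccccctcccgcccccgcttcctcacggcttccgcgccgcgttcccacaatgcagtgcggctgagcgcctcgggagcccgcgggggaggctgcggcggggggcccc

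Levels were first set side by side per length, as CPM per kilobase of the exons of each gene merged over its transcripts. In Tissue-Input, Srsf5 was the most abundant at 60.5 ± 3.67 CPM per kb (SD, n = 4), and Srsf10 the least at 9.77 ± 0.37. Between them, Srsf4 (43.8 ± 2.25), Srsf3 (43.6 ± 2.04), Srsf9 (38.99 ± 2.46), Srsf2 (35.01 ± 1.89) and Srsf11 (32.7 ± 1.46) followed in that order, each with a range that overlapped the next. Srsf6 (19.9 ± 1.69), Srsf7 (19.6 ± 0.88) and Srsf1 (18.9 ± 0.48) came after a gap and overlapped as well. In sorted Input without mouse 72 the order differed: Srsf9 (163 ± 14.3 CPM per kb, SD, n = 15) and Srsf5 (153 ± 19.6) stood above the rest and overlapped each other. Srsf2 (87.4 ± 8.81) and Srsf3 (84.4 ± 9.01) came next, then Srsf6, Srsf11, Srsf7 and Srsf4 at 49.4 ± 6.02 down to 39.9 ± 3.97, all 4 overlapping. Srsf1 (23.4 ± 2.69) and Srsf10 (16.9 ± 1.89) were lowest, with ranges that overlapped narrowly. With mouse 72 included, Srsf5 had the higher mean of the leading pair (175 ± 90.97 against 168 ± 24.3 CPM per kb, n = 16).

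**Figure D1:**
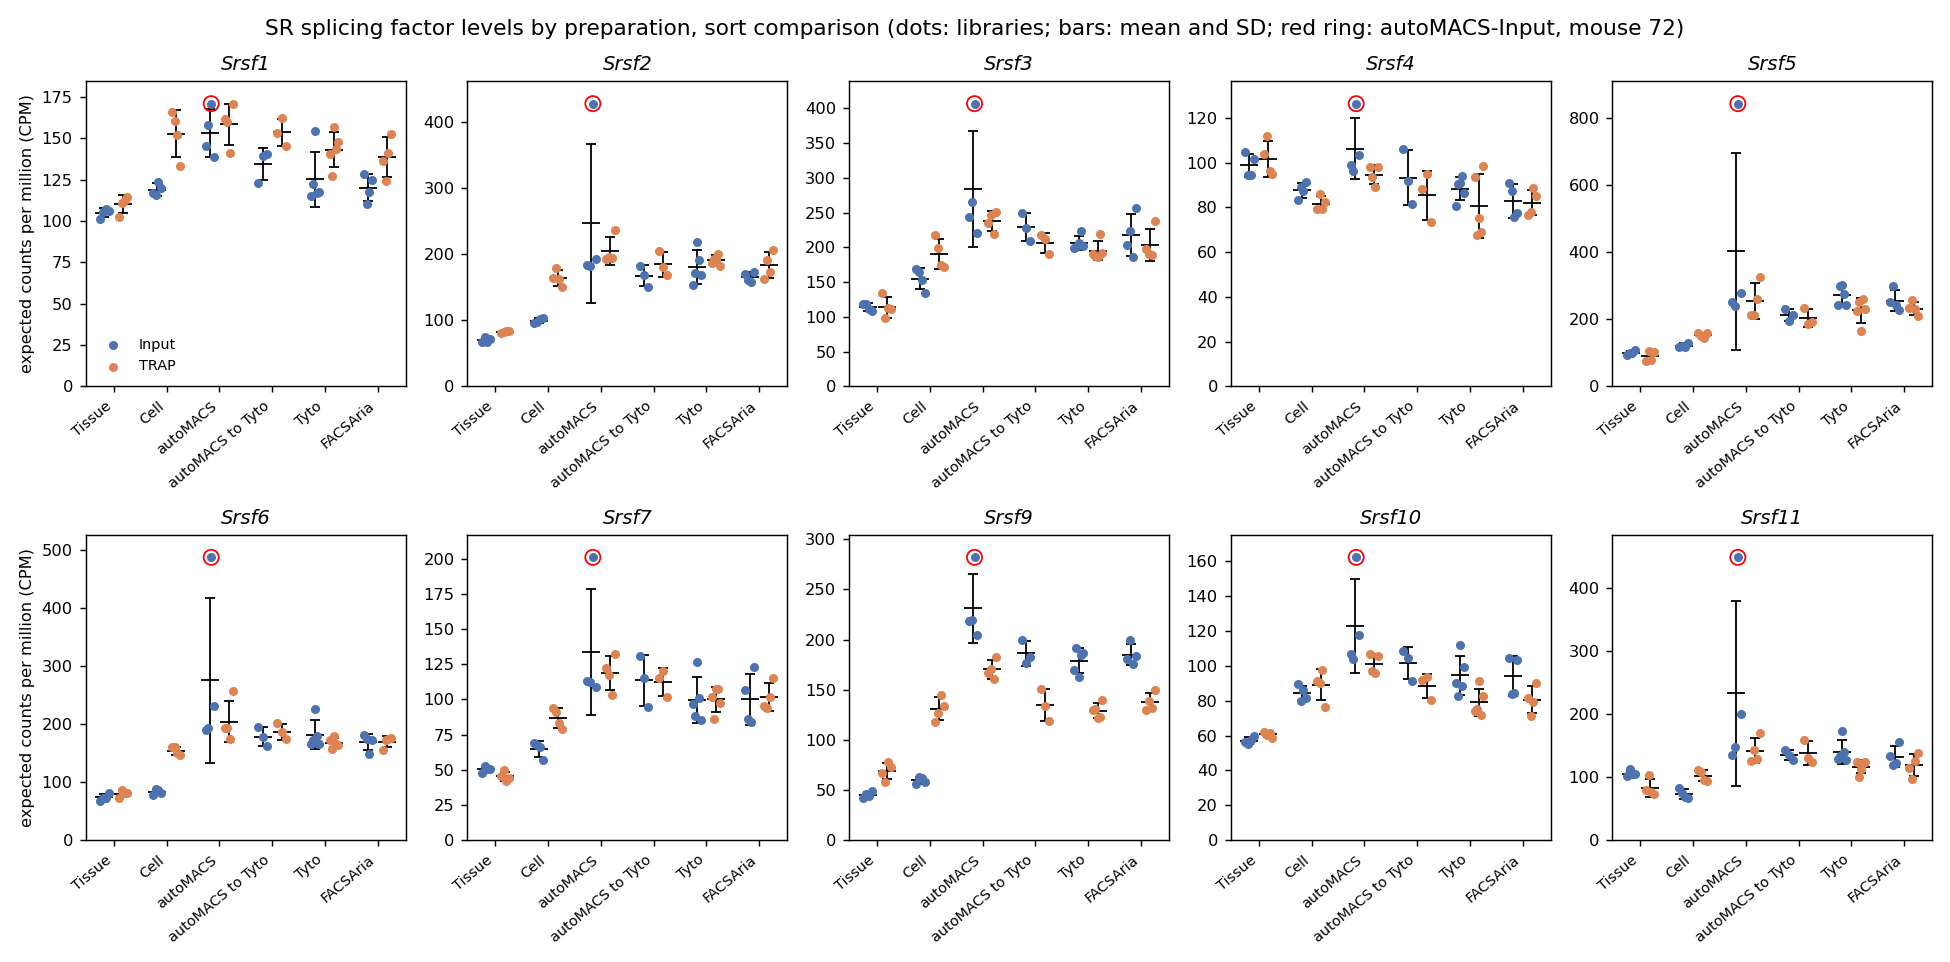
Levels of the 10 genes in the comparison of sorting methods, in CPM, with a panel per gene. Points are libraries (Input blue, TRAP orange, the 2 fractions scaled separately), bars are the mean and SD of a group, and a red ring marks the autoMACS-Input library of mouse 72, which for Srsf5 stood at 842 CPM against 239 to 279 in the other 3.

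The first question was whether making a suspension changed these genes. Between Cell-Input and Tissue-Input none of the 10 passed adjusted p under 0.1 with a change over 2-fold in edgeR's quasi-likelihood test, a call that 46% of all genes received, although 6 had an unadjusted p under 0.05. DESeq2's Wald test also called 0 over 2-fold. Here and below, counts at an unadjusted p and in DESeq2 have no share over all genes beside them. The same holds where groups are said not to overlap, so neither is a result about the 10 genes as a set. At any fold, 6 rose (background 42.7%) and 2 fell (background 32.4%), and the median log2 fold change of the 10 was 0.32 against 0.17 over all genes. Srsf10, known as a repressor of splicing when dephosphorylated under heat shock, measured 54.9, 56.1, 57.4 and 60 CPM in Tissue-Input and 79.99, 81.7, 86.1 and 89.3 in Cell-Input. All 4 Cell-Input libraries lay above all Tissue-Input libraries (log2 fold change 0.56, SE 0.12, adjusted p = 0.000263). Srsf9 rose from 41.9, 44.4, 46.1 and 48.7 CPM to 55.6, 58.02, 61.9 and 62.9, again without overlap (log2 fold change 0.40, SE 0.09, adjusted p = 0.000523). Srsf2, Srsf3, Srsf7 and Srsf1 rose by 0.51, 0.44, 0.36 and 0.18 on the log2 scale, with adjusted p of 0.0195, 0.00631, 0.0603 and 0.0736. Srsf1, the founding member of the family, was not called with the mouse as a block (0.05, adjusted p = 0.55), whereas Srsf5 was (0.15, adjusted p = 0.083). Here and below, the fit with the mouse as a block held only the groups compared. Such a fit without the block also called Srsf5 (edgeR adjusted p = 0.0624). With DESeq2 size factors 6 of the 10 genes were called, and Srsf7 (0.27, adjusted p = 0.178) and Srsf1 (0.09, adjusted p = 0.395) were not. DESeq2's Wald test and the filter of at least 10 counts in every library left the same 6.

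Srsf11 and Srsf4 went the other way. Srsf11, which binds the splice site factor U2af2 and works with Srrm4 on neuronal microexons, measured 101, 104, 105 and 112 CPM in Tissue-Input and 66.7, 67.6, 75.1 and 82.8 in Cell-Input, with no overlap (log2 fold change -0.53, SE 0.24, adjusted p = 0.0497). Srsf4, the longest SR protein of the classical set, fell from 94.5, 94.6, 101 and 105 CPM to 83.2, 87.3, 88.9 and 91.1 (log2 fold change -0.17, SE 0.09, adjusted p = 0.0995). These groups did not overlap either. The spans of Srsf4 and Srsf11 overlap A930004J17Rik and Gm43362, annotated on the same strands, and whether exons or reads are shared was not checked. The number called at any fold was 4 without the Cell-Input library of mouse 948 and 5 without the Tissue-Input library of mouse 946. The call of Srsf4 was lost on leaving out any 1 of 5 of the 8 libraries, which were Cell-Input of mice 946, 947 and 948 and Tissue-Input of mice 946 and 949. Neuronal markers were lower and microglial, astrocyte, oligodendrocyte and endothelial markers higher in Cell-Input, with the sums given above. The 6 nuclear RNAs summed to 3624 to 4428 CPM in Tissue-Input and 620.1 to 697 in Cell-Input, where 4 of them (Meg3, Snhg11, Miat and Kcnq1ot1) fell over 2-fold and Neat1 rose (2.29, adjusted p = 7.74e-07). Their part in these differences was not tested. In bulk RNA, fewer cells of a type and less RNA per cell cannot be told apart.

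The same step in the comparison of cell preparations, from Tissue 2-Input to Cell (-) Inhib-Input, gave 8 genes higher (background 40%) and 2 lower (background 36.8%), and 0 over 2-fold in edgeR (background 44.7%). All 10 had an unadjusted p under 0.05, and DESeq2 called 9 at any fold and 0 over 2-fold. The largest differences were those of Srsf5 (log2 fold change 0.67, SE 0.12, adjusted p = 6.11e-05) and Srsf9 (log2 fold change 0.58, SE 0.10, adjusted p = 2.29e-05). Srsf5 measured 113, 114, 119 and 119.7 CPM in Tissue 2-Input and 163, 166, 169.6 and 242 in Cell (-) Inhib-Input, where the library of mouse 1361 was the highest. The genes that fell were again Srsf4 (log2 fold change -0.35, SE 0.09, adjusted p = 0.00152) and Srsf11 (log2 fold change -0.22, SE 0.10, adjusted p = 0.0619). On a scale set over the libraries of both fractions, which moved the median of all genes by 0.15, Srsf11 no longer passed (-0.08, adjusted p = 0.536). Since Tissue and Tissue 2 carry the same mouse numbers, the tissue groups of both comparisons may share animals, and libraries with the same number deviated from their group means together, with r of 0.173 to 0.345 in Input and 0.465 to 0.588 in TRAP.

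The second question was how sorted cells differed from the suspension. The mice differed as well, so sorting and the set of mice cannot be told apart. As compared with Cell-Input, the mean of the 4 sorts in Input was higher for 9 of the 10 genes (background 39.6%), and 4 of them, Srsf5, Srsf6, Srsf9 and Srsf11, rose over 2-fold (background 17.1%). The median log2 fold change of the 10 was 0.84 against -0.09 over all genes. Without mouse 72, 9 still rose and 3 of the 4 stayed over 2-fold, with a median of 0.76. With DESeq2 size factors the median of all genes moved by -0.21, 7 genes passed at any fold, 2 passed 2-fold and the median of the 10 was 0.64.

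Srsf9, a shuttling SR protein with a short arginine-serine tail, changed most. It measured 55.6, 58.02, 61.9 and 62.9 CPM in Cell-Input, 175, 181, 183 and 199.7 in FACSAria-Input, 162, 169.6, 184, 187 and 192 in Tyto-Input, 176, 182 and 199.7 in autoMACS to Tyto-Input and 204, 219, 219 and 282 in autoMACS-Input, where the highest value was that of mouse 72. The lowest sorted library stood above the highest unsorted library by more than 2-fold (log2 fold change 1.70, SE 0.08, adjusted p = 2.46e-15). Without mouse 72 the log2 fold change was 1.68 (adjusted p = 2.7e-17). Under every alternative normalization, filter, fit and left-out library tried, Srsf9 stayed over 2-fold.

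Srsf6, Srsf5 and Srsf4 are close relatives within the family, and they did not move alike. Srsf6 measured 78.1, 81.2, 87.1 and 88.9 CPM in Cell-Input, and in the 16 sorted Input libraries its lowest value was 149, its median 178 and its highest 488 (log2 fold change 1.23, SE 0.17, adjusted p = 5.99e-07). Srsf5, first described as a gene induced in regenerating liver, stood at 117, 119, 121 and 131 CPM in Cell-Input and at 195, 247 and 842 (lowest, median, highest) after sorting (log2 fold change 1.19, SE 0.22, adjusted p = 3.41e-05). For both genes, no sorted library overlapped Cell-Input. Without mouse 72 the log2 fold changes were 1.13 for Srsf6 and 1.03 for Srsf5, with adjusted p of 1.51e-11 and 1.63e-11. Srsf4 stood at 83.2, 87.3, 88.9 and 91.1 CPM in Cell-Input and at 75.9, 90.96 and 126 after sorting, and the groups overlapped (log2 fold change 0.07, SE 0.07, adjusted p = 0.353). With only genes of at least 10 counts in every library, Srsf4 was lower after sorting (-0.23, adjusted p = 0.00814), and with both fractions in the fit it was higher (0.31, adjusted p = 0.000661), so that its direction here depended on the scale.

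Srsf11 measured 66.7, 67.6, 75.1 and 82.8 CPM in Cell-Input and 118, 135 and 448 (lowest, median, highest) after sorting (log2 fold change 1.09, SE 0.20, adjusted p = 3.31e-05). The ranges did not overlap, and without mouse 72 the log2 fold change was 0.95 (adjusted p = 4.9e-09), under 2-fold. Srsf2, whose protein marks nuclear speckles, rose from 95.6, 98.1, 102 and 103 CPM to 151, 173 and 427 (log2 fold change 0.91, SE 0.16, adjusted p = 1.31e-05). Srsf3 and Srsf7, small SR proteins that couple splicing to the choice of polyadenylation site and to mRNA export, rose by 0.58 (SE 0.11, adjusted p = 5.39e-05) and 0.77 (SE 0.14, adjusted p = 2.73e-05). Sorted Srsf3 lay at 186 to 407 CPM against 134 to 169 in Cell-Input, and sorted Srsf7 at 84.2 to 201 against 56.7 to 69.1, without overlap. Srsf10 (0.28, adjusted p = 0.0105) and Srsf1 (0.16, adjusted p = 0.0479) changed least among those called, and Srsf1 turned to -0.05 (adjusted p = 0.552) with DESeq2 size factors. The stricter filter turned both below 0, Srsf10 to -0.03 (adjusted p = 0.827) and Srsf1 to -0.15 (adjusted p = 0.066). Neuronal, astrocyte, oligodendrocyte and endothelial marker sums were lower and microglial sums higher in every sorted library than in Cell-Input, and their part in these differences was not tested.

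Among the 4 sorts, the Input levels differed for 9 genes at adjusted p under 0.1 in edgeR's F test (background 16.9%), and for 0 over 2-fold (background 7.42%). The same 9 had an unadjusted p under 0.05, and DESeq2 was not run on this test. In limma-voom 3 genes were called, Srsf1, Srsf4 and Srsf9, and the same 3 with the mouse as a random effect (adjusted p of 0.0489, 0.0772 and 0.0259), a fit added after the values were seen because the sorts share mice. Without the mouse 72 library 3 genes passed, Srsf1 (adjusted p = 0.0974), Srsf5 (0.0666) and Srsf9 (0.0694), and leaving out the Tyto-Input library of mouse 69 or 822 or the FACSAria-Input library of mouse 991 left 5. In that library Srsf11 stood at 448 CPM against 135 to 199 in the other 3, Srsf6 at 488 against 190.2 to 231, and Srsf2 at 427 against 182 to 192. Srsf3 (407 against 221 to 265), Srsf7 (201 against 109 to 113) and Srsf10 (162 against 104 to 118) were also highest there. Srsf1 was less set apart, at 171 CPM against 139 to 158. The autoMACS-TRAP library of the same mouse was not high, with Srsf5 at 262 CPM against 212 to 327 and Srsf11 at 129 against 125 to 169. In TRAP, 5 genes differed among the sorts, Srsf3, Srsf6, Srsf7, Srsf9 and Srsf10 (background 28.8%), and 0 over 2-fold (background 4.17%), with 6 at an unadjusted p under 0.05. The same 5 were called in limma-voom with the mouse as a random effect. Srsf9-TRAP had the smallest p (adjusted p = 0.00316), at 161, 167, 170.4 and 182 CPM after autoMACS and 122, 123, 129.8, 131 and 140.0 after Tyto, with no overlap. With single TRAP libraries left out 2 to 6 genes were called, with 2 without the autoMACS-TRAP library of mouse 73 and 3 without each of 8 others, which were autoMACS mice 66 and 67, autoMACS to Tyto mouse 67, Tyto mice 69 and 822 and FACSAria mice 69, 945 and 991.

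In the TRAP fraction, made by pull-down of tagged ribosomes, all 10 genes differed between Cell-TRAP and Tissue-TRAP. A total of 9 were higher (background 41.9%), Srsf4 was lower (background 41.9%), and 0 passed 2-fold in edgeR, against 54.3% of all genes. All 10 had an unadjusted p under 0.05, while DESeq2 called 9 at any fold and 0 over 2-fold, and the median of the 10 was 0.75 against -0.01 over all genes. Size factors moved the median of all genes by -0.33 and took Srsf11 from 0.30 to -0.03 (adjusted p = 0.83) and Srsf1 from 0.47 to 0.14 (adjusted p = 0.108). Of all genes called over 2-fold, 46.2% were higher with TMM and 35% with size factors. Srsf2 measured 81.2, 82.5, 83.5 and 84.1 CPM in Tissue-TRAP and 149.6, 163, 164 and 179 in Cell-TRAP (log2 fold change 0.98, SE 0.08, adjusted p = 4.16e-11). Srsf6 rose from 72.3, 80.8, 80.8 and 87.1 to 147, 150.2, 160.1 and 160.5 CPM (log2 fold change 0.94, SE 0.09, adjusted p = 5.75e-10), Srsf7 from 42.3, 44.3, 45.6 and 49.8 to 78.8, 83.4, 91.3 and 93.97 (log2 fold change 0.93, SE 0.09, adjusted p = 9.13e-10) and Srsf9 from 58.5, 67.1, 72.6 and 77.9 to 118, 127, 134 and 145 (log2 fold change 0.92, SE 0.09, adjusted p = 4.51e-10). These 4 genes, named for the largest log2 fold changes, did not overlap between the groups, with no share over all genes beside it. All 4 stood just under 2-fold. Without the Cell-TRAP library of mouse 949, Srsf2 passed 2-fold (1.02). Srsf4 fell from 94.9, 96.02, 104 and 112 to 79.1, 79.4, 82.3 and 86.001 CPM (log2 fold change -0.31, SE 0.10, adjusted p = 0.00696).

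In the comparison of cell preparations, Cell (-) Inhib-TRAP against Tissue 2-TRAP gave 9 genes higher (background 36%) and 1 over 2-fold, Srsf7 (background 22.3%), with a median of 0.71 against -0.13 over all genes. Srsf7 stood at 46.2, 54.5, 54.8 and 60.7 CPM in Tissue 2-TRAP and at 109, 109.9, 117 and 128 in Cell (-) Inhib-TRAP (log2 fold change 1.10, SE 0.12, adjusted p = 1.03e-07). Srsf6 was at the boundary, from 91.8, 97.6, 101 and 126 to 198, 203, 208 and 222 CPM (log2 fold change 1.00, SE 0.13, adjusted p = 1.73e-06), and passed 2-fold when the libraries of mouse 947, 156 or 1362 were left out. Neither gene overlapped between groups. Srsf11 was higher here (0.70, adjusted p = 4.68e-05), and Srsf4 measured 92.5, 116, 117 and 126 against 91.5, 93.9, 101 and 105 CPM (-0.21, adjusted p = 0.105). Srsf4 was called lower with size factors (-0.23, adjusted p = 0.0687), the Wald test (-0.23, adjusted p = 0.0523), no filter (-0.25, adjusted p = 0.051), the stricter filter (-0.41, adjusted p = 0.00275) and both fractions in the fit (-0.25, adjusted p = 0.0219). It was also called without the Tissue 2-TRAP library of mouse 949 (-0.29, adjusted p = 0.024) or the Cell (-) Inhib-TRAP library of mouse 157 (-0.24, adjusted p = 0.0926). Microglial markers were also higher in the suspensions, with 5034 to 6272 CPM in Tissue-TRAP and 30877 to 32749.9 in Cell-TRAP, and 6547 to 7634 in Tissue 2-TRAP and 34857 to 39866 in Cell (-) Inhib-TRAP. Neuronal markers were at 6002 to 6791 CPM in Tissue-TRAP against 7642 to 7934 in Tissue-Input, each on its own fraction's scale, and 0 of the 8 were called between those fractions in edgeR or at an unadjusted p under 0.05. In Cell-TRAP they were at 135 to 379.8. Astrocyte sums were 3415 to 5127 CPM in Tissue-TRAP and 1598 to 1816 in Cell-TRAP. In the same order, oligodendrocyte sums were 688 to 951 and 449.7 to 654 CPM, endothelial sums 128 to 193 and 829 to 860.0, and sums of the nuclear RNAs 918 to 3074 and 148 to 408. Their part in these differences was not tested.

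TRAP differed less between the suspension and the sorts, again from different mice. As compared with Cell-TRAP, 5 genes were higher in the mean of the sorts, Srsf2, Srsf5, Srsf6, Srsf7 and Srsf11 (background 23.2%), and 0 passed 2-fold (background 24.4%) in edgeR or DESeq2, with 5 at an unadjusted p under 0.05. Srsf5 changed most, from 145, 149, 158 and 160.0 CPM to 166, 230.3 and 327 (lowest, median, highest of 16), with every sorted library above every Cell-TRAP library (log2 fold change 0.58, SE 0.11, adjusted p = 0.000124). Srsf9, which led in Input, measured 118, 127, 134 and 145 CPM in Cell-TRAP and 119 to 182 after sorting, which overlapped (log2 fold change 0.12, SE 0.07, adjusted p = 0.158). With the mouse as a random effect in limma-voom, Srsf3 passed as well (0.15, adjusted p = 0.0919), and limma-voom without the mouse also called these 6. The comparisons of the sorts with Cell and of Cell with Tissue share the Cell libraries.

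**Figure D2:**
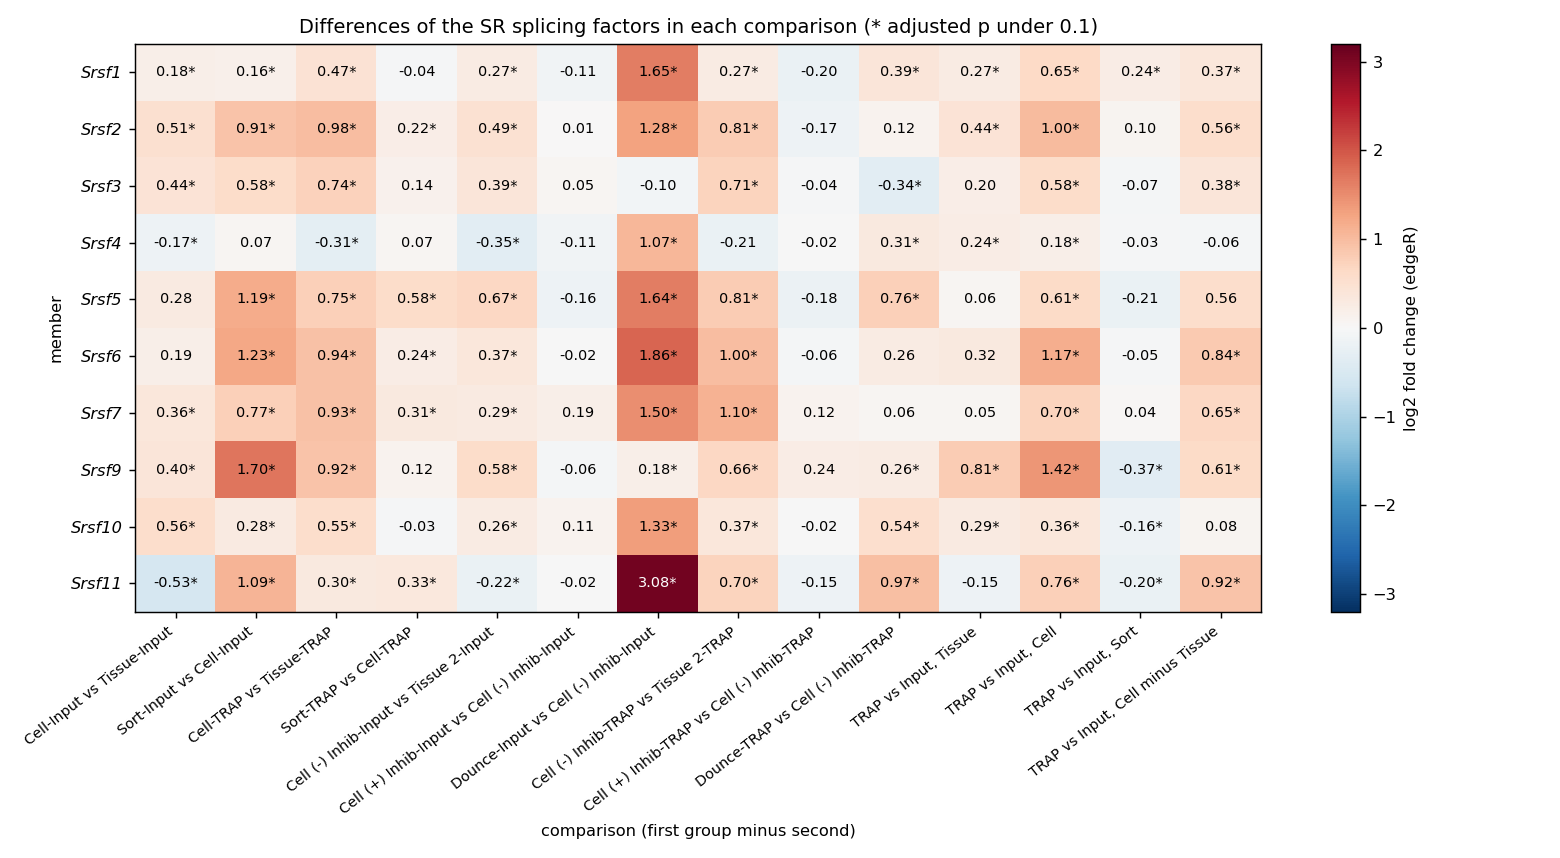
Log2 fold changes of the 10 genes in 14 comparisons, as colours, with a star where edgeR's adjusted p was under 0.1. The row of Srsf11 holds the largest value, 3.08 for Dounce-Input against Cell (-) Inhib-Input, and the columns of Cell (+) against Cell (-) Inhib hold no star.

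The fit across both fractions of the sorting table compared the relative level of each RNA in TRAP and Input, on a scale common to both. In Tissue and Cell, Input holds RNA of all cell types. The choice of cells and the binding to ribosomes therefore cannot be told apart there. In Tissue, 5 genes were higher in TRAP than in Input, Srsf1, Srsf2, Srsf4, Srsf9 and Srsf10 (background 24.2%), and 0 over 2-fold (background 11.1%), with 5 at an unadjusted p under 0.05. DESeq2 called 3 and 0, size factors left 2, the stricter filter 1, and leaving out any of the 4 mice left 1 to 3. Srsf9 had the largest difference, at 38.3, 40.2, 41.7 and 44.1 CPM in Tissue-Input and 60.2, 70.3, 75.6 and 81.7 in Tissue-TRAP, with no overlap (log2 fold change 0.81, SE 0.09, adjusted p = 1.45e-09). With the mouse as a block Srsf6 was also higher (0.28, adjusted p = 0.00392) and Srsf11 lower (-0.20, adjusted p = 0.037). Without the block, a fit of only these groups also called Srsf6 (edgeR adjusted p = 0.00993).

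In Cell, all 10 genes were higher in TRAP (background 38.9%) and Srsf2, Srsf6 and Srsf9 over 2-fold (background 16.8%), but with DESeq2 size factors, which moved the median of all genes by -0.41, 6 passed, 1 of them over 2-fold, and Srsf4 was lower (-0.23, adjusted p = 0.0395). Srsf10 moved from 0.36 (adjusted p = 0.00373) to -0.05 (adjusted p = 0.714) on that scale, and the share of all calls over 2-fold that were higher moved from 35.2% to 21.0%. Srsf9 measured 47.6, 49.1, 52.03 and 53.3 CPM in Cell-Input and 122, 131, 138 and 149.7 in Cell-TRAP (log2 fold change 1.42, SE 0.09, adjusted p = 4.08e-17). Srsf6 measured 66.8, 68.7, 73.3 and 75.4 and 152, 155, 165 and 165 (log2 fold change 1.17, SE 0.17, adjusted p = 9.51e-08), and Srsf2 81.8, 83.2, 85.9 and 86.99 and 155, 168, 169 and 185 (log2 fold change 1.00, SE 0.16, adjusted p = 5.05e-07). With the mouse as a block Srsf2 came to lie just under 2-fold (0.998, adjusted p = 1.41e-07), which leaves 2 genes over it. A fit of only these groups without the block also left 2. The fractions did not overlap for any of the 3. The microglial marker sum was 30877 to 32749.9 CPM in Cell-TRAP against 4918 to 6476 in Cell-Input, each on its own fraction's scale, and its part was not tested.

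In the sorted cells, Srsf1 was higher in TRAP (background 22%), Srsf9, Srsf10 and Srsf11 were lower (background 42.5%), and 0 passed 2-fold (background 18.9%) in edgeR or DESeq2, with 3 at an unadjusted p under 0.05. Srsf9 had the lowest, median and highest values of 164, 185 and 307 CPM in sorted Input and 126, 143 and 189 in sorted TRAP (log2 fold change -0.37, SE 0.05, adjusted p = 8.72e-09), and these ranges overlapped. In the unsorted groups Srsf9 had been higher in TRAP. Without both libraries of mouse 72, Srsf9 remained lower (-0.32, adjusted p = 1.08e-08), Srsf11 stood at -0.03 (adjusted p = 0.726), and Srsf6 turned from -0.05 to 0.11 (adjusted p = 0.0454). With the mouse as a block, Srsf2 (0.22, adjusted p = 0.013) and Srsf7 (0.14, adjusted p = 0.0645) were higher in TRAP, and Srsf10 (adjusted p = 0.235) and Srsf11 (adjusted p = 0.55) did not pass. Srsf2 also passed in a fit of only these groups without the block (edgeR adjusted p = 0.0681).

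The difference between TRAP and Input was itself compared between Cell and Tissue. It was larger in Cell for 7 genes, Srsf1, Srsf2, Srsf3, Srsf6, Srsf7, Srsf9 and Srsf11 (background 25%), and for 0 by more than 2-fold (background 35.3%) in edgeR, with 7 at an unadjusted p under 0.05, and DESeq2 called 4 and 0. The median of the 10 was 0.56 against -0.29 over all genes. Srsf11 (0.92, SE 0.29, adjusted p = 0.00729), Srsf6 (0.84, SE 0.24, adjusted p = 0.00296) and Srsf7 (0.65, SE 0.21, adjusted p = 0.00705) had the largest values. With size factors, which moved the median of all genes by -0.32, 4 genes were called, and Srsf4 was then lower (-0.38, adjusted p = 0.0183). On that scale the share of all calls over 2-fold that were higher moved from 16.3% to 5.23%. Without both libraries of Tissue mouse 947, 4 genes passed, and without those of mouse 948 or 949, 3. With the mouse as a block Srsf5 passed as well (0.53, adjusted p = 0.00176). It also passed in a fit of only these groups without the block (0.52, edgeR adjusted p = 0.00379).

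The comparison of cell preparations asked whether blocking transcription and translation during the warm enzymatic step changed the profile. With inhibitors added, 0 of the 10 genes were called in Input (background 0.381% at any fold and 0.311% over 2-fold), with 0 at an unadjusted p under 0.05 in edgeR and 0 calls in DESeq2. At such a background, a count of 0 says nothing particular about the members. Their log2 fold changes lay between -0.16 for Srsf5 and 0.19 for Srsf7, with standard errors of 0.09 to 0.12. Srsf5 measured 163, 166, 169.6 and 242 CPM without inhibitors and 157, 162, 168 and 174 with them, and Srsf7 63.9, 75.4, 77.1 and 78.7 and 75.3, 79.8, 86.3 and 94.6. Both pairs of groups overlapped. In TRAP, edgeR called 0 of the 10 (background 2.11% at any fold and 0.638% over 2-fold) and DESeq2 0, with Srsf9 alone at an unadjusted p under 0.05. Srsf9 stood at 136, 139, 141 and 146 CPM without and 150.2, 153, 172 and 190.2 with inhibitors, so that every value with inhibitors was above every value without them (log2 fold change 0.24, SE 0.11, edgeR adjusted p = 0.515). Srsf1 stood at 169, 170.0, 174 and 185 and 141, 141, 154 and 171 CPM, with a narrow overlap (-0.20, SE 0.11, edgeR adjusted p = 0.662). With the mouse as a block, since both suspensions came from the same 4 mice, Srsf9 was higher (0.25, edgeR adjusted p = 0.0222) and Srsf1 lower (-0.19, edgeR adjusted p = 0.0476). Fitted alone without the block, these groups also gave Srsf9 as higher (0.26, edgeR adjusted p = 0.0931).

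Among the comparisons made, Dounce-Input against Cell (-) Inhib-Input had the largest median difference over the 10 genes. In Dounce-Input, 8 of the 10 genes were over 2-fold higher than in Cell (-) Inhib-Input (background 28.8%) and 9 were higher at any fold (background 41.1%), with a median log2 fold change of 1.41 against -0.06 over all genes. With both fractions in the fit, an alternative added after the values were seen, the median of all genes moved by -0.35, 5 genes (Srsf1, Srsf5, Srsf6, Srsf7 and Srsf11) stayed over 2-fold and the median of the 10 was 1.06. On that scale the share of all calls over 2-fold that were higher moved from 50.6% to 39.2%.

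**Figure D3:**
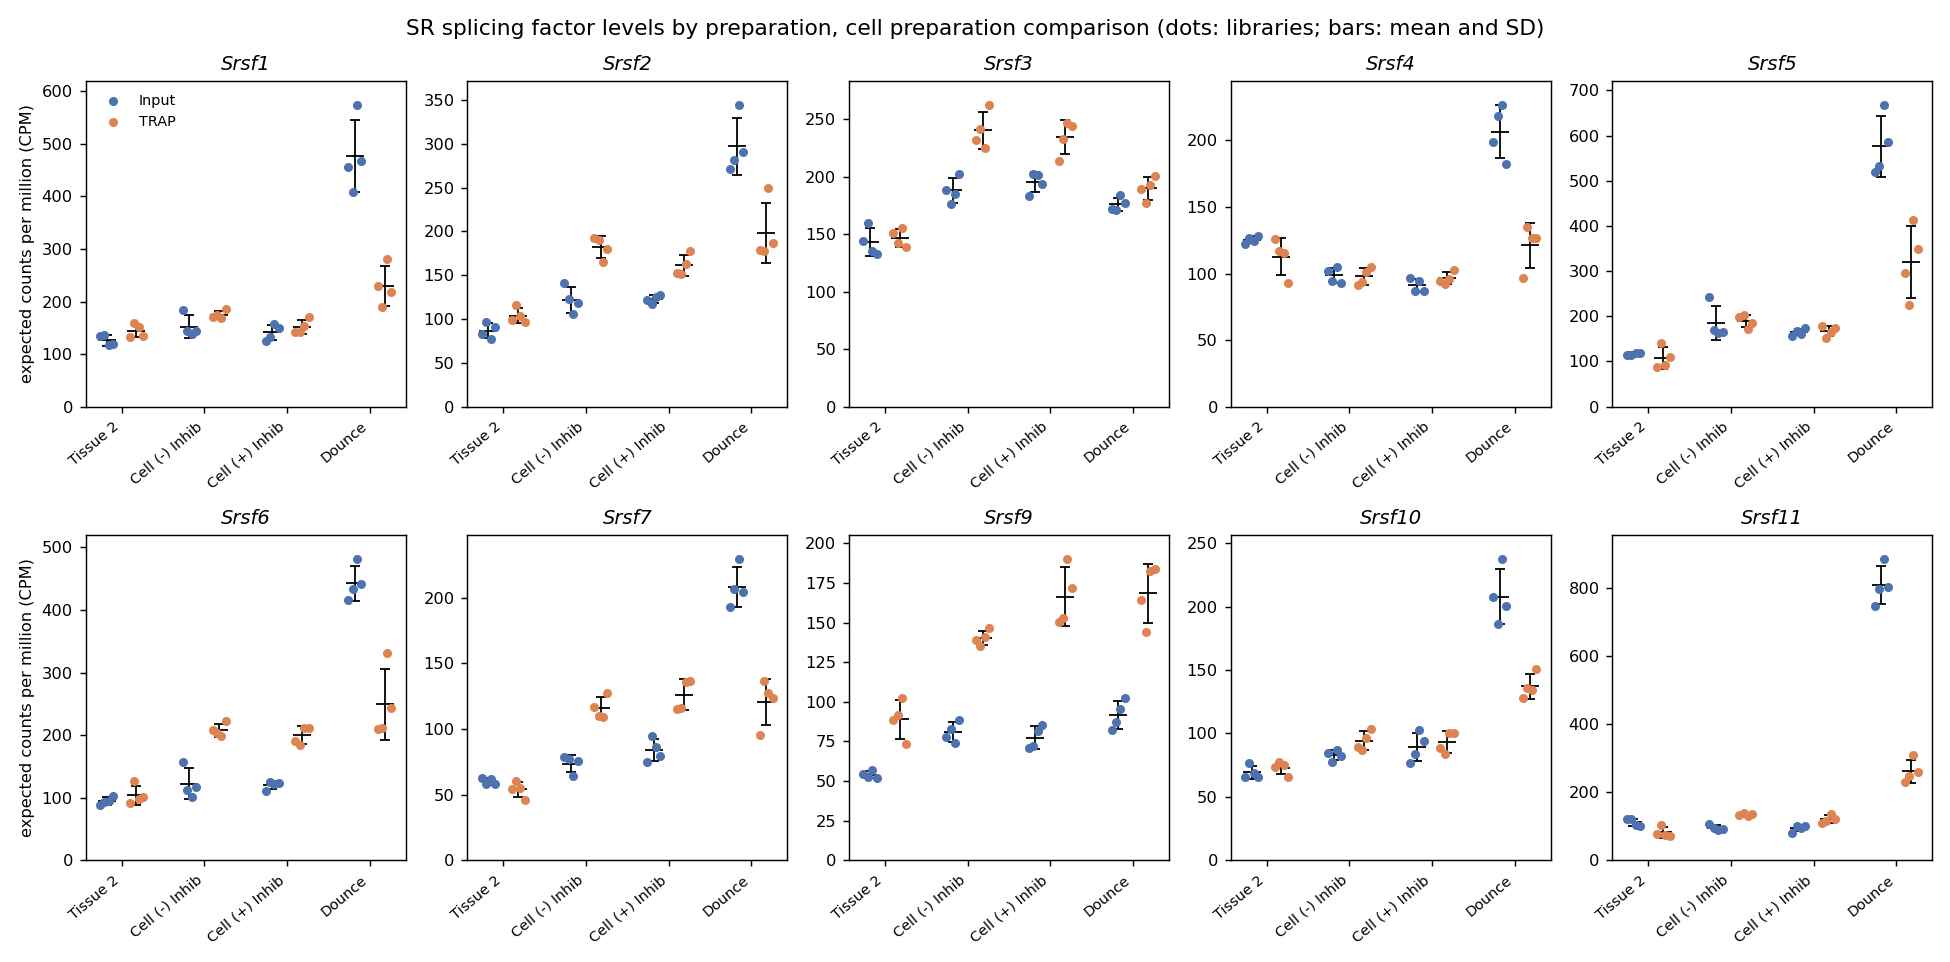
Levels of the 10 genes in the comparison of cell preparations, in CPM, with a panel per gene. Points are libraries (Input blue, TRAP orange, scaled separately) and bars the mean and SD of 4 mice. Srsf11 in Dounce-Input lies at 747 to 885 CPM, and Srsf3 and Srsf9 in Dounce-Input do not stand above the other suspensions as the rest do.

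Srsf11 changed most. It measured 88.99, 91.01, 95.7 and 106 CPM in Cell (-) Inhib-Input, 101, 105, 119.9 and 120.1 in Tissue 2-Input and 747, 797, 803 and 885 in Dounce-Input. Every Dounce-Input library was more than 2-fold above every library of the other 3 Input groups (log2 fold change 3.08, SE 0.11, adjusted p = 2.67e-14). Srsf6 rose from 101, 112, 118 and 158 to 416, 433, 441 and 482 CPM (log2 fold change 1.86, SE 0.12, adjusted p = 3.54e-11), Srsf1 from 138, 144, 144 and 184 to 409, 457, 468 and 574 (log2 fold change 1.65, SE 0.12, adjusted p = 3.77e-10) and Srsf5 from 163, 166, 169.6 and 242 to 519.9, 532, 585 and 667 (log2 fold change 1.64, SE 0.12, adjusted p = 3.53e-10). None of these groups overlapped. Srsf7 (1.50), Srsf10 (1.33), Srsf2 (1.28) and Srsf4 (1.07) followed, with SE of 0.09 to 0.11 and adjusted p from 4.61e-11 to 1.53e-09. Srsf4, which fell from tissue to suspension in Input, was here at 182, 199, 219 and 226 CPM against 92.96, 94.5, 102 and 105.

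Srsf3 and Srsf9 did not follow the other 8. Srsf3, the smallest SR protein, measured 176, 185, 189 and 203 CPM in Cell (-) Inhib-Input and 171, 172, 177 and 184 in Dounce-Input, which overlapped (log2 fold change -0.10, SE 0.09, adjusted p = 0.307), and with both fractions in the fit it was lower (-0.44, adjusted p = 7.8e-06). Srsf9 measured 73.997, 77.9, 82.6 and 88.5 and 82.02, 87.3, 95.7 and 102 CPM, also overlapping and just past the threshold (0.18, SE 0.10, adjusted p = 0.0847), and turned to -0.17 (adjusted p = 0.144) on that scale. Per length, the Dounce-Input order was led by Srsf5 (348 ± 40.5 CPM per kb, SD, n = 4) and Srsf11 (251 ± 17.6), which did not overlap each other or the rest, while Srsf9 (79.02 ± 7.73) overlapped Srsf7 (80.8 ± 5.96), Srsf1 (85.8 ± 12.5) and Srsf4 (91.5 ± 8.87).

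The 6 RNAs that stay in the nucleus were also highest in Dounce-Input. They summed to 32229.7 to 40689 CPM in Dounce-Input, 760.5 to 2042 in Cell (-) Inhib-Input, 675 to 956 in Cell (+) Inhib-Input and 4779 to 5678 in Tissue 2-Input. The highest Cell (-) Inhib-Input value was that of mouse 1361, whose library also had the highest Srsf1 (184 CPM against 138 to 144) and Srsf5 (242 against 163 to 169.6) of its group. The makeup of the sum differed between groups here too, with Malat1 at 439 to 553 CPM of it in Tissue 2-Input and 255 to 903 in Cell (-) Inhib-Input. Cell type markers differed too, and microglial sums were 5603 to 9254 CPM in Cell (-) Inhib-Input and 1846 to 2874 in Dounce-Input. In the same order, endothelial sums were 1431 to 1832 and 36.7 to 40.8 CPM, astrocyte sums 7636 to 10934 and 1486 to 3871, oligodendrocyte sums 10595 to 23916 and 6768 to 7649.7 and neuronal sums 494 to 923 and 4345 to 4923. In Tissue 2-Input neuronal sums were 9993 to 10268 CPM. According to the study's quality records, RNA of Dounce-Input was also the least intact, and coverage leaned more to the 3′ end in Tissue-Input and Dounce-Input than in the enzymatic suspensions. The count tables hold neither measure. The part of these shifts in the result was not tested.

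In Dounce-TRAP the differences from Cell (-) Inhib-TRAP were smaller. In edgeR 6 genes were higher (background 30.2%), Srsf3 was lower (background 29.4%), and 0 passed 2-fold (background 28.7%), with 7 at an unadjusted p under 0.05, and DESeq2 called 7 at any fold and 0 over 2-fold. Srsf11 again changed most, from 129, 132, 136 and 138 to 231, 249, 258 and 309 CPM without overlap (log2 fold change 0.97, SE 0.12, adjusted p = 3.31e-06), and it passed 2-fold when the Dounce-TRAP library of mouse 179 was left out. Srsf5 rose from 171, 186, 198 and 202 to 225, 295, 349.6 and 412 CPM (log2 fold change 0.76, SE 0.16, adjusted p = 0.000632), with every Dounce-TRAP library above every other. Srsf10 (0.54, adjusted p = 0.000152), Srsf1 (0.39, adjusted p = 0.00614), Srsf4 (0.31, adjusted p = 0.0285) and Srsf9 (0.26, adjusted p = 0.0586) were also higher. Srsf3 fell from 225, 232, 242 and 262 to 177, 189, 193 and 201 CPM, with no overlap (log2 fold change -0.34, SE 0.08, adjusted p = 0.00227). The nuclear RNAs summed to 7963 to 12481 CPM in Dounce-TRAP, highest for mouse 181, and to 187 to 356 in Cell (-) Inhib-TRAP, and neuronal markers to 1142 to 2295 and 98.9 to 229. Their part was not tested.

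The enzymes that phosphorylate and import SR proteins were followed through a list of 10 genes, all tested. From Cell (-) Inhib-Input to Dounce-Input 6 rose over 2-fold (background 28.8%) and 0 fell over 2-fold (background 28.1%), with a list median of 1.42, and Clk4 (2.96, adjusted p = 4.19e-14), Clk1 (2.60) and Clk3 (1.93), nuclear kinases of the arginine-serine tail, led it. From Cell-Input to sorted Input 3 rose over 2-fold (background 17.1%) and 0 fell (background 34.7%). Those that rose were Srpk3 (2.25, adjusted p = 1.47e-07), Clk1 (1.64) and Clk4 (1.20). From Tissue-TRAP to Cell-TRAP 5 rose (background 25.1%) and 1 fell (background 29.3%) over 2-fold, led by Clk1 (2.37, adjusted p = 9.05e-13), while the cytoplasmic kinase Srpk2 fell by 1.54. From Tissue-Input to Cell-Input 1 rose, Srpk3 (1.12), and 1 fell, Srpk2 (-1.26, adjusted p = 3.19e-08), both shares below the background (28.5% and 17.5%). In TRAP as compared with Input, 4 were over 2-fold higher in Cell (background 16.8%) and 1 in Tissue, a share near the background there (9.23%).

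Of 19 SR-related splicing proteins, which share arginine-serine repeats but were not picked as members, 18 were tested. Srsf12 is on this list although it carries a symbol of the SR family. The counts and means given for the family leave Srsf12 out. In Dounce-Input 13 rose over 2-fold (background 28.8%) and 0 fell (background 28.1%), with a list median of 2.24, led by Snrnp70 (3.53, adjusted p = 4.59e-12), the core protein of the U1 particle, Srsf12 (3.14) and Srek1 (3.08). In Dounce-TRAP 8 rose over 2-fold (background 20.7%), with Srsf12 at 4.87. From Cell-Input to sorted Input 5 rose (background 17.1%), among them Snrnp70 (1.22) and the speckle scaffold Son (1.14), and 1 fell, Srsf12 (-4.13), a share below the background (34.7%). From Tissue-Input to Cell-Input 0 rose (background 28.5%) and 5 fell (background 17.5%), with Srsf12 (-2.35), Rbm25 (-1.28) and Luc7l3 (-1.16) named. The inhibitors called no gene of either list at any fold in either fraction (background 0.381% in Input and 2.11% in TRAP). At such a background this says nothing particular about the lists.

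Across the 12 group means of the comparison of sorting methods, 9 of the 10 genes followed the family's mean profile, with Pearson r from 0.84 for Srsf1 to 1.00 for Srsf6, and Srsf4 did not (r = 0.33). These r describe group means that share libraries and the members themselves. The closest pair was Srsf3 and Srsf7 (r = 0.99). The centred family mean on the log2 scale was lowest in Tissue-Input (-0.84) and Cell-Input (-0.72), 0.02 in Cell-TRAP and highest in autoMACS-Input (0.69), the group that holds mouse 72. Without that library autoMACS-Input stood at 0.38 and autoMACS-TRAP was highest (0.41), while Tissue-Input (-0.82) and Cell-Input (-0.69) were still lowest. Among 9659 other genes, the profiles most like it were those of Uimc1, Wdr41, Rbm39, Ctu2 and Cwf19l2, each at r = 0.99. Rbm39 is an SR-related splicing coactivator. Without mouse 72 the first 5 were Wdr41, Eif2s1, Zfp787, Uimc1 and Bin1, 2 of which were among the first 5 with it.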

How the data were processed

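The deposited values are expected counts per gene, which the authors obtained in Strand NGS v4.0 from stranded poly(A) libraries aligned to mm10, with duplicate reads removed. They need not be whole (33.2% and 20.8% of values were) and were rounded here. The submitters' processing notes also name DESeq2. All per-sample columns were mapped to labelled samples (0 left over), and no duplicated library was found. Each table and fraction was fitted by group with edgeR 4.0.16 (R 4.3.3, limma 3.58.1) by the quasi-likelihood test, with TMM scaling and Benjamini-Hochberg adjustment over all genes tested (15750, 14953, 15753 and 14723). TRAP was compared with Input in a fit of all 48 sorting libraries (15825 genes). Calls used adjusted p under 0.1, with or without a change over 2-fold. The fits were tested on simulated counts for sorted Input against Cell-Input and Dounce-Input against Cell (-) Inhib-Input only. Few genes were changed there, as many up as down, so this cannot judge the scaling where many genes differ.

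The members and lists were chosen with earlier results of these data known. All 10 members are named, with up to 3 called genes per list and comparison and the 5 genes most like the family. Markers and lists were taken as fixed sets. Tissue and Cell, both Inhib groups, and the Input and TRAP of a lysate come from the same mice, and 6 mice gave libraries to 2 sorts. Tissue 2 carries the mouse numbers of Tissue. Deviations of same-mouse libraries correlated at 0.02 to 0.10 (Cell and Tissue, Input), 0.13 to 0.24 (TRAP), -0.10 to 0.12 (both Inhib groups, Input) and 0.08 to 0.49 (TRAP), and between sorts of the same mouse at -0.055 to 0.342. Alternatives were DESeq2 size factors, the Wald test of DESeq2 1.42.0, no filter, at least 10 counts in every library, only the groups compared, the mouse as a block in that fit, each library left out in turn and, added after the data were seen, both fractions in the fit, limma-voom, and limma-voom with the mouse as a random effect for the sorts, where a fixed block cannot compare sorts with no mouse in common. Gene positions, exon lengths and overlaps come from GENCODE vM21 and promoters from RefSeq. Srsf1, Srsf2 and Srsf4 overlap genes on the opposite strand.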

Additional observations from a re-analysis of the deposited data

Results flagged for a closer look

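In 12 of 180 groups of 4 or 5 libraries, the library at one end stood apart from the rest by Dixon's test, which chance alone does in about 1 of 20 groups. The autoMACS-Input library of mouse 72 accounted for 4, with Srsf2 at 427 CPM, Srsf5 at 842, Srsf6 at 488 and Srsf7 at 201. The Cell (-) Inhib-Input library of mouse 1361 was high for Srsf1 (184 CPM) and Srsf5 (242), and the Tyto-Input library of mouse 823 for Srsf1 (155) and Srsf6 (226). These 3 libraries also held the largest sums of nuclear RNAs in their groups, at 8972, 2042 and 1575 CPM, and the part of these sums was not tested. In TRAP, Srsf2 was high in Dounce mouse 181 (249.8 CPM) and in autoMACS mouse 73 (237), Srsf3 in Tyto mouse 945 (219), and Srsf6 was low in FACSAria mouse 69 (156). The nuclear sum was the largest of its group in Dounce-TRAP mouse 181 (12481 CPM) and autoMACS-TRAP mouse 73 (820 against 108 to 130). It was not the largest in Tyto-TRAP mouse 945 or FACSAria-TRAP mouse 69.

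The difference between TRAP and Input was larger in Cell than in Tissue for 7 genes, by 0.37 on the log2 scale for Srsf1, 0.56 for Srsf2, 0.38 for Srsf3, 0.84 for Srsf6, 0.65 for Srsf7, 0.61 for Srsf9 and 0.92 for Srsf11, each past edgeR's adjusted p of 0.1 in the test of the difference itself.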

How the results depend on the processing

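Of 2720 member values recomputed, 2379 kept their direction and their side of the threshold. Without a change of sign, 226 lost the call and 49 gained it. A further 50 changed sign with neither value past the threshold, and 16 with the reported or the recomputed value past it. Of 544 counts of members, 487 stayed within 1.5 times. Where values differ, the cause was not tested. Members over 2-fold in sorted Input against Cell-Input numbered 4, and 2 with DESeq2 size factors, 2 with its Wald test and 1 with the stricter filter. Srsf1 there became -0.048, -0.049 and -0.15 in the same order, and under the stricter filter Srsf4 became -0.23 and Srsf10 -0.0255. Srsf11 in Cell-TRAP against Tissue-TRAP became -0.028, -0.028 and -0.0605. For TRAP against Input in Cell, members over 2-fold numbered 1, 1 and 0 and at any fold 6, 6 and 5, Srsf4 became -0.23, -0.23 and -0.28, and Srsf10 -0.046, -0.046 and -0.098. For TRAP against Input in Tissue, 2, 3 and 1 were called, and for Cell minus Tissue 4, 4 and 4. Size factors left 3 of the 5 genes that differed among sorts in TRAP. The stricter filter gave 0 over 2-fold for Cell (-) Inhib-TRAP against Tissue 2-TRAP, where fitting only the groups compared gave 2, and 1 for Dounce-TRAP. With both fractions in the fit, 3 were called for sorted TRAP against Cell-TRAP, 2 among the sorts in TRAP, 1 over 2-fold among the sorts in Input and 5 over 2-fold in Dounce-Input, where Srsf9 became -0.17.

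Both Inhib-TRAP groups gave 1 call when fitted alone and 2 with the replicate block. In other comparisons the fixed block, in a fit of only the groups compared, changed 9 member calls at any fold and the 2-fold call of Srsf2 for TRAP against Input in Cell, each given with its comparison, and no other member call. Several of these changes also arose in that fit without the block, so the block and the choice of groups are not separated here. Among sorts in Input, limma-voom called 3, also with the mouse as a random effect (a replicate block), and took all genes over 2-fold from 1169 to 723 and 744. For TRAP against Input after sorting, fitting only those groups moved the median of all genes by 0.20. With single libraries left out, calls ranged from 4 to 8 for Cell-Input against Tissue-Input, 3 to 9 among sorts in Input (0 to 2 over 2-fold), 2 to 6 among sorts in TRAP, 1 to 3 for TRAP against Input in Tissue and 3 to 7 for Cell minus Tissue. Over 2-fold they ranged from 0 to 1 for Cell-TRAP, 1 to 2 for Cell (-) Inhib-TRAP and 0 to 1 for Dounce-TRAP. Among sorts in Input, Srsf5 passed 2-fold without autoMACS mouse 66, 67 or 73 and Srsf11 without mouse 66, and Srsf6 in TRAP against Input after sorting ranged from -0.086 to 0.11, the latter without mouse 72.

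The stricter filter took the number of all genes over 2-fold from 7248 to 3247 (Cell-Input), 8162 to 3079 (sorted Input), 8126 to 4381 (Cell-TRAP), 3651 to 440 (sorted TRAP), 1169 to 304 and 624 to 173 (among sorts), 7043 to 4565 and 7826 to 4770 (Cell (-) Inhib, Input and TRAP), 49 to 32 (inhibitors, Input), 4228 to 1892 (Dounce-TRAP), and for TRAP against Input 1756 to 925 (Tissue), 7535 to 2734 (Cell), 2994 to 224 (sorts) and 5579 to 2035 (Cell minus Tissue), since fewer genes were tested. The share higher among Dounce-TRAP calls moved from 72.1% to 83.0%. With the block and only the groups compared, inhibitor-TRAP calls moved from 94 to 150 and sorted TRAP against Input from 2994 to 1364. For the latter, fitting only those groups without the block gave 1383. The Dounce-TRAP libraries were the shallowest.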

Other observations

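Of 22 hnRNP proteins, which often oppose SR proteins at exons, 18 were tested. From Tissue-Input to Cell-Input 3 rose over 2-fold, Ptbp1 (log2 fold change 2.52, edgeR adjusted p = 4.15e-16), Hnrnpf (1.63) and Hnrnpul1 (1.23), and 0 fell, both shares below the background of all genes (28.5% and 17.5%). From Tissue-TRAP to Cell-TRAP 4 rose, led by Ptbp1 (2.35), again a share below the background (25.1%). In sorted Input as compared with Cell-Input 17 were higher at any fold (background 39.6%), but over 2-fold the 2 that were higher made a share below the background (17.1%). In Dounce-Input 4 were over 2-fold higher (background 28.8%) and 6 lower (background 28.1%) than in Cell (-) Inhib-Input, with a median of -0.24, and Hnrnpf fell by 2.00 (adjusted p = 5.5e-12) while Hnrnph1 rose by 2.00.

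All 15 neuronal splicing regulators were tested. A total of 14 fell over 2-fold from Tissue-Input to Cell-Input (background 17.5%) and 0 rose (background 28.5%), with a median of -2.64. In Dounce-Input 13 were over 2-fold higher than in Cell (-) Inhib-Input (background 28.8%), with Srrm3 at 4.96, Srrm4 at 4.65 and Celf5 at 4.60. The inhibitors called no gene of these lists at any fold (background 0.381% in Input and 2.11% in TRAP), which says nothing particular about them.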
